A study of Mus musculus with 3 samples.

Results

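The miR-199 and miR-214 microRNAs were followed through 3 small-RNA sequencing libraries of mouse origin. Members were chosen by name, as the entries miR-199a-5p, miR-199b-5p, miR-199a-3p, miR-199b-3p and miR-214-3p, which are 5 of the 1915 mature miRNAs listed in each library. miR-199a-3p and miR-199b-3p carried the same count in every library and are described as 1 member, miR-199-3p, which leaves 4. The libraries came from B16 cells, a melanoma line labelled as skin of strain C57BL/6J, from the exosomes these cells shed, and from those shed by JB6 cells, a skin line with the labels normal and BALB/c. Exosomes are small vesicles released into the culture medium, here harvested by ultracentrifugation. With 1 library per group there is no replicate check of any difference, and each interval given is a 95% interval for counting error only.

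In background, miR-199 and miR-214 are known from mesenchyme, the loose connective tissue that gives rise to fibroblasts, cartilage and bone, and from activated fibroblasts. A miRNA hairpin is cut into a 5p and a 3p arm, and the arm that is loaded into an Argonaute protein represses messenger RNAs that pair with its seed, the bases 2 to 8. Mir199a-2 and Mir214 are made from the long non-coding RNA Dnm3os, which is read from the strand opposite to the dynamin gene Dnm3, while Mir199a-1 and Mir199b lie opposite to the related genes Dnm2 and Dnm1. miR-214-3p is known to target Ezh2, and miR-199a-3p to target Mtor and Met. In human melanoma both miR-199a and miR-214 have been studied as promoters of metastasis.

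The mature sequences are shown because they set which entries can be told apart and which share targets. They were taken from RefSeq (build GRCm38.p6), run 5′ to 3′, and have the seed in capitals.
miR-199a-5p: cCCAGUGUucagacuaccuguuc
miR-199a-3p: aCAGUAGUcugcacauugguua
miR-199b-3p: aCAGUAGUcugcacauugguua
miR-214-3p: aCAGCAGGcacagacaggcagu
miR-214-5p: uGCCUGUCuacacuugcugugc
miR-761: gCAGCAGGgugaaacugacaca
The 3p arms of miR-199a and miR-199b were identical over all 22 bases, so a read of that arm names no hairpin. The seeds of miR-199a-3p and miR-214-3p differed by the substitutions U5C and U8G, counted from 1 at the 5′ end with the miR-199a-3p base first. Among the 1623 listed miRNAs with a RefSeq sequence, the only other miRNA with the seed of miR-214-3p was miR-761, which was listed at 0 in all 3 libraries. Only miR-199b-3p had the seed of miR-199a-3p, and no other miRNA that of miR-214-5p. The RefSeq set used gave no mature miR-199b-5p, so that member is not shown and its seed was not compared.

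The hairpins are shown because the shared 3p arm can come from any of 3 genes, whereas miR-214 comes from 1. Capitals mark the mature arms that RefSeq gives for each hairpin.
Mir199a-2: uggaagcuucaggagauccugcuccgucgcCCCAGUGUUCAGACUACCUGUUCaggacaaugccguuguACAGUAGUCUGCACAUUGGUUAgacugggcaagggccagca
Mir214: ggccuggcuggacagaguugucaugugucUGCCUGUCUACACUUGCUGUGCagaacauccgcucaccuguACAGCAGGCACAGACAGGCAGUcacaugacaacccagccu
Mir199a-1: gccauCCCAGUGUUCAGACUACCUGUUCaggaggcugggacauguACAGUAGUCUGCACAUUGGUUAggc
Mir199b: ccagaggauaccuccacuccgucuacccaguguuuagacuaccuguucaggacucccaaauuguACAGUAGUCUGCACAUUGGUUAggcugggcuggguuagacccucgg
Mir199a-2 lies on the plus strand at chr1:162217814-162217923 and Mir214 at chr1:162223368-162223477, 5444 bases apart. Both fall within an exon of Dnm3os and, on the opposite strand, overlap no exon of Dnm3, which spans them. Mir199a-1 lies on the minus strand at chr9:21496495-21496564 within Dnm2, and Mir199b on the plus strand at chr2:32318460-32318569 within Dnm1, each opposite to the host gene and overlapping none of its exons. miR-199a-5p can therefore come from chromosomes 1 and 9, and miR-199b-5p, its close paralogue, from chromosome 2.

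Depth set what could be seen. The B16 cell library held 7925726 miRNA reads, the B16 exosome library 45677 and the JB6 exosome library 4495956. The smallest count above 0 in every library was 10, so a listed 0 stands for at most 9 reads, which is 1.14, 197 and 2.002 RPM (reads per 1000000 miRNA reads) in that order. Of the labelled cell types, the melanocyte miRNA miR-211-5p had 21080, 83 and 0 reads, and miR-137-3p, another of the 3 melanocyte markers, was listed at 0 throughout. Of 7 epithelial and keratinocyte markers, miR-205-5p, miR-141-3p and miR-429-3p were listed at 0 in every library, and the summed level of the list was 24.9, 0 and 7.78 RPM.

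The shared arm miR-199-3p was the most abundant member of every library, and as a share of miRNA reads its level was similar in all 3. Its reads numbered 11717 in the B16 cell library, 72 in B16 exosomes and 9276 in JB6 exosomes. These were 1478 RPM (1452 to 1505), 1576 RPM (1234 to 1985) and 2063 RPM (2021 to 2106). The interval of B16 exosomes overlapped that of B16 cells, and JB6 exosomes lay above B16 cells beyond counting error. Under other totals it was less even, with a ratio of B16 exosomes to B16 cells of 0.526 with TMM factors and 0.0632 with the authors' totals, and to JB6 exosomes of 0.148 with TMM factors, 0.117 with DESeq2 size factors and 0.0515 with the authors' totals. By reads it stood at rank 63, 62 and 41 in the respective libraries.

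The 5p arms, which are listed as separate entries for miR-199a and miR-199b, did not share that evenness. Their sequences are nearly the same, and how reads that match both were assigned is unknown here. miR-199b-5p had 1641 reads in B16 cells (207 RPM, 197 to 217), a listed 0 in B16 exosomes and 52 reads in JB6 exosomes (11.6 RPM, 8.64 to 15.2). miR-199a-5p had 165 reads in B16 cells (20.8 RPM, 17.8 to 24.2), 13 in B16 exosomes (285 RPM, 152 to 487) and 616 in JB6 exosomes (137 RPM, 126 to 148). miR-199b-5p was thus the main 5p entry of the melanoma cells, and miR-199a-5p that of JB6 exosomes and the only 5p entry listed in B16 exosomes. The order of miR-199a-5p ran from B16 cells, the lowest, to JB6 exosomes and B16 exosomes, whose intervals did not overlap but rest on 13 reads in the latter. The place of B16 exosomes in that order turned with the total, as given with the comparisons.

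miR-214-3p was listed in 1 library only. It had 890 reads in JB6 exosomes (198 RPM, 185 to 211) and a listed 0 in B16 cells and in B16 exosomes. Its other arm, miR-214-5p, had 255 reads in JB6 exosomes (56.7 RPM, 49.97 to 64.1) and was listed at 0 in both B16 libraries. In B16 cells those zeros lie at or below 1.14 RPM, far under the JB6 level, but in B16 exosomes the limit of 197 RPM is as high as the JB6 level itself.

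**Figure D1:**
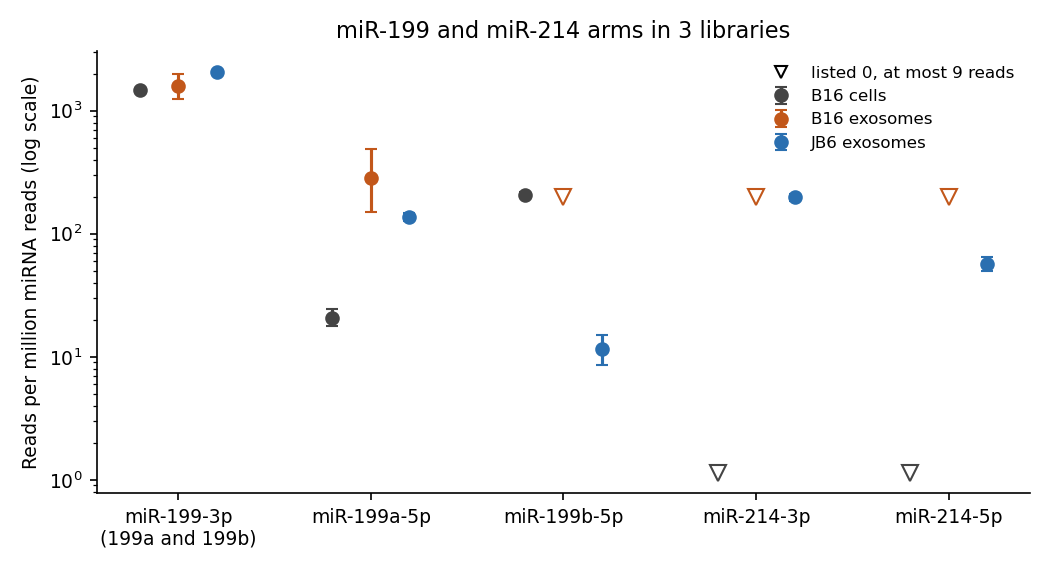
Level of each miR-199 and miR-214 arm in RPM (log axis), 1 library per group, with 95% counting intervals. Open triangles are upper limits of 9 reads for a listed 0. miR-199-3p lies between 1478 and 2063 RPM in all 3 libraries, while miR-199a-5p and miR-199b-5p go in opposite directions between B16 cells and JB6 exosomes and miR-214 has points only for JB6 exosomes.

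The 2 deep libraries, JB6 exosomes and B16 cells, give the sharpest view of the members, although cell line, strain, disease state and the step from cells to vesicles cannot be told apart in that comparison. Given at least 30 reads in the pair of libraries together, an entry counted as higher or lower if its share of miRNA reads differed by 2-fold or more and 1 lay outside the interval. Taking 9 reads for a listed 0 gave a lower bound. miR-199a-5p was 6.58-fold higher in JB6 exosomes (5.53 to 7.86). miR-199b-5p was 17.9-fold lower (13.6 to 24.1). miR-214-3p was at least 174-fold higher, or at least 91.4-fold with counting error, and miR-214-5p at least 49.9-fold (25.9-fold with counting error). The ratio of miR-199-3p was 1.40 (1.36 to 1.43).

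By that rule 2 of 4 members were higher, 1 was lower and 1 was neither. Over all 501 miRNAs tested 26.1% were higher and 60.7% were lower, so calls in either direction were common and a count of 3 in 4 is near the background. The opposite directions of miR-199a-5p and miR-199b-5p held under each of 5 other totals. The bound for miR-214-3p was lowest under the authors' totals, at 153-fold (80.4-fold with counting error). miR-199-3p moved with the total, from a ratio of 1.23 under the authors' totals to 3.55 under TMM factors and 8.34 under DESeq2 size factors. Among the 305 miRNAs listed in both libraries, from the highest ratio down, miR-199a-5p stood at 39, miR-199-3p at 95 and miR-199b-5p at 242.

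**Figure D2:**
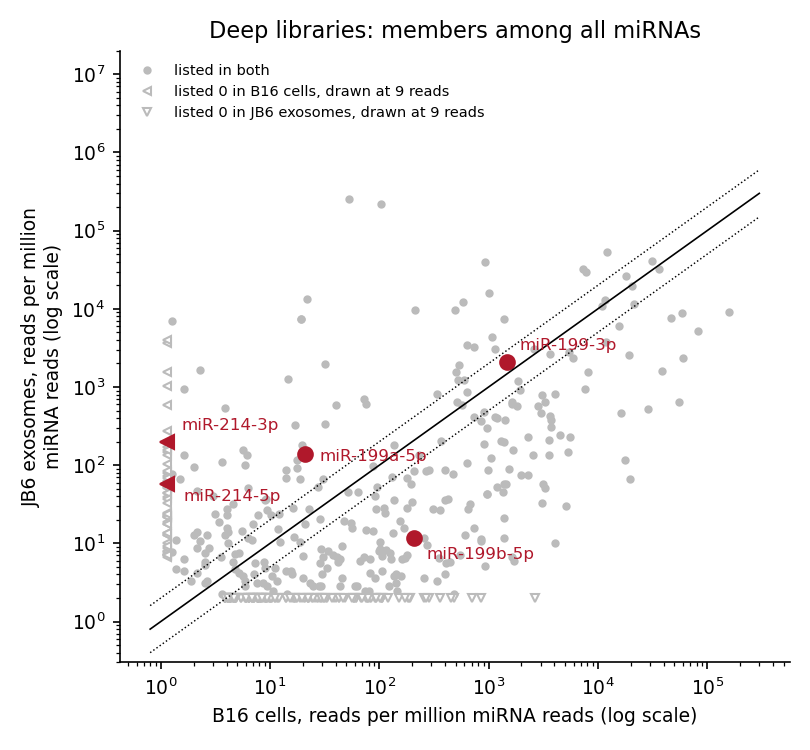
Level of every miRNA with 30 or more reads over B16 cells (x axis) and JB6 exosomes (y axis), in RPM on log axes. The solid line is equality and the dotted lines are 2-fold. miR-199-3p lies within the lines, miR-199a-5p and both miR-214 arms above them, and miR-199b-5p below.

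The balance of the paralogues needs no total and so does not move with the scaling. miR-199b-5p made up 90.9% of the 1806 miR-199 5p reads of B16 cells (89.4 to 92.2) and 7.78% of the 668 of JB6 exosomes (5.87 to 10.1). Per read of miR-199a-5p there were 9.95 reads of miR-199b-5p in the cells (8.47 to 11.7) and 0.0844 in JB6 exosomes (0.0623 to 0.112), a 118-fold change in their ratio (84.3 to 166). In B16 exosomes the 13 reads of miR-199a-5p stood against at most 9 of miR-199b-5p, or at most 40.9% (63.6% with counting error). The ratio of miR-199b-5p to miR-199a-5p was therefore at least 14.4-fold lower there than in the parent cells, or 5.57-fold with counting error. Whether B16 and JB6 exosomes differ in this ratio was not resolved. How reads that match both 5p entries were assigned is unknown here, so their split is uncertain to that extent.

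Shifts between paralogues were frequent in these libraries. Of 158 pairs of entries with the same family number and arm but another letter or copy number, 54.4% shifted by the same 2-fold rule between JB6 exosomes and B16 cells, with a median of 6.78-fold among those called. A larger shift than that of the miR-199 5p pair was seen in 10 pairs, 6 of which involve let-7d-3p. Between B16 exosomes and B16 cells 17.3% of 150 pairs were called, and none of these moved further than the miR-199 pair. In B16 exosomes 0.951 reads of miR-199a-5p were predicted from the cells, and listed counts start at 10. The miR-199 pair could thus hardly be called there without a large shift, and its place among those called reflects that limit. The pairs share entries and are not independent.

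**Figure D3:**
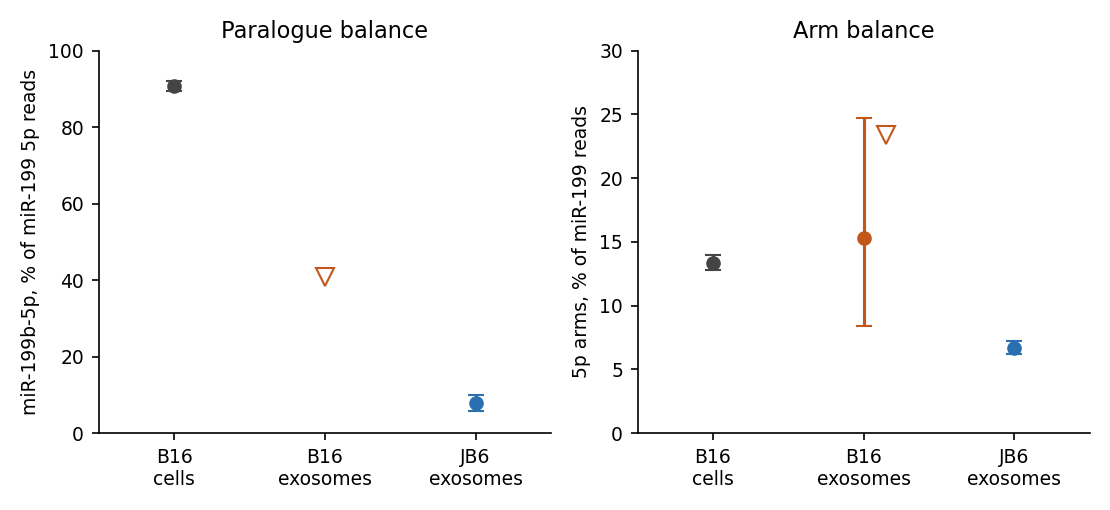
Left, share of miR-199 5p reads assigned to miR-199b-5p. Right, share of 5p reads among all miR-199 reads with the shared 3p arm counted once. Bars are exact 95% counting intervals with 1 library per group, and open triangles show B16 exosomes with the listed 0 of miR-199b-5p at 9 reads. The paralogue share falls from 90.9% in B16 cells to 7.78% in JB6 exosomes, and the 3p arm predominates in every library.

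The 3p arm was the predominant arm of miR-199 in all 3 libraries. With both 5p entries summed, there were 6.49 reads of the 3p arm per 5p read in B16 cells (6.17 to 6.82) and 13.9 in JB6 exosomes (12.8 to 15.04). In B16 exosomes there were 5.54 (3.04 to 10.9), or 3.27 (2.01 to 5.54) if the unlisted miR-199b-5p had 9 reads. The ratio of 5p to 3p reads was 2.14-fold lower in JB6 exosomes than in B16 cells (1.95 to 2.35). With the unlisted miR-199b-5p taken as no reads, the ratio of ratios of B16 exosomes to B16 cells was 1.17 (0.594 to 2.14). At 9 reads the interval of 3p per 5p reads lay below that of the cells. Whether B16 exosomes differ from the cells in arm balance was therefore not resolved. Against JB6 exosomes the 5p to 3p ratio of B16 exosomes was at least 2.51-fold higher (1.27-fold with counting error).

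Set against B16 cells, both results depend on which 5p entry is used. With miR-199a-5p alone against the shared 3p arm, the ratio was 4.72-fold higher in JB6 exosomes than in B16 cells (3.96 to 5.65) and 12.8-fold higher in B16 exosomes than in the cells (6.38 to 23.9). miR-214, too, had more 3p than 5p reads, 3.49 to 1 in JB6 exosomes (3.03 to 4.03). Of 125 hairpins with enough reads on both arms, 60.8% changed arm balance by the rule between JB6 exosomes and B16 cells. The median was 9.72-fold among the 76 called, of which 58 shifted further than miR-199a and 19 further than miR-199b. Between B16 exosomes and B16 cells 6.6% of 106 were called and 86.8% not resolved, and none called shifted further than miR-199a. miR-199a could hardly be called there without a large shift, as its 5p arm is listed only from 10 reads and 0.951 were predicted. Between B16 and JB6 exosomes 22.6% of 53 were called and 75.5% not resolved. Of those 12 called, 10 shifted further than miR-199a. Within libraries, 3p reads outnumbered 5p reads in 45.8% of the 142 hairpins with both arms listed in B16 cells, in 6 of 10 in B16 exosomes and in 51.9% of 81 in JB6 exosomes.

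miR-214-3p and miR-199a-5p share the transcript Dnm3os through Mir199a-2, but miR-199a-5p can also come from Mir199a-1. JB6 exosomes held 1.44 reads of miR-214-3p per read of miR-199a-5p (1.30 to 1.60), and 0.0959 per read of miR-199-3p (0.0895 to 0.103). In B16 cells at most 9 reads of miR-214-3p stood against 165 of miR-199a-5p and 11717 of miR-199-3p. The ratio of miR-214-3p to miR-199a-5p was at least 26.5-fold higher in JB6 exosomes than in B16 cells (13.5-fold with counting error), and that to miR-199-3p at least 125-fold higher (65.4-fold). At the miR-214-3p share of JB6 exosomes, the B16 cell library would have held 1569 reads. miR-199a-5p, which Mir199a-2 can also give, was listed in those cells at 20.8 RPM.

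Among 126 pairs of miRNAs from hairpins within 10 kb on 1 strand, 57.1% changed balance by the rule between JB6 exosomes and B16 cells, with a median of 10.7-fold among the 72 called. The shift between miR-214-3p and miR-199-3p, an arm that can also come from hairpins outside this cluster, was exceeded by 10 of them. With miR-199a-5p in its place the shift was smaller, at least 26.5-fold, and was not ranked.

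**Figure D4:**
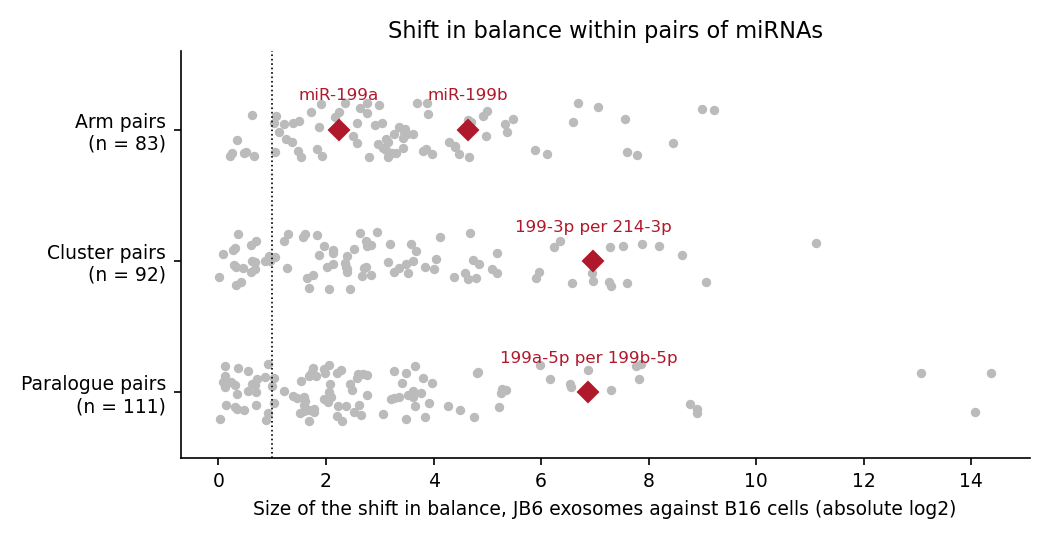
Size of the shift in balance between JB6 exosomes and B16 cells (absolute log2, 1 is 2-fold and dotted) for 111 pairs of paralogous entries, 92 pairs of cluster neighbours and 83 pairs of arms, each point 1 pair with unresolved pairs left out and vertical scatter for legibility. A listed 0 is drawn at 9 reads. miR-214-3p is paired with the shared arm miR-199-3p, and its pair with miR-199a-5p (at least 4.73) is not drawn. The miR-199 5p paralogues (6.88) and the pair of miR-199-3p and miR-214-3p (6.96) lie toward the right of their groups, with 10 called pairs beyond each, and miR-199a and miR-199b, both set against the shared 3p arm, lie at 2.24 and 4.64.

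B16 exosomes were set against B16 cells to see whether the members are over- or under-represented in the vesicles of the melanoma line. miR-199-3p had a ratio of 1.07 (0.834 to 1.34), with 72 reads where the share of the cells predicts 67.5. miR-199a-5p was 13.7-fold higher (7.13 to 24.03), with 13 reads where 0.951 were predicted, and stood 11th from the top of the 144 miRNAs listed in both. As listed counts start at 10, an entry with that prediction could under this total only be called higher or left unresolved. The call and the high rank of miR-199a-5p thus follow from its being listed at all. For miR-199b-5p 9.46 reads were predicted, just above the 9 that a listed 0 allows, so its ratio was not resolved. miR-214-3p was listed at 0 in both and has no ratio. Of the 3 members with enough reads 1 was higher and none lower, where 8.53% of 422 miRNAs were higher, 7.82% were lower and 63.3% were not resolved.

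The call of miR-199a-5p rests on 13 reads and on the total. It stayed higher with TMM factors at 6.75-fold (3.52 to 11.9), while under the authors' totals, which count 847694 reads in B16 exosomes against 45677 miRNA reads, its ratio was 0.811 (0.423 to 1.42). Under those totals no member was higher and 2 were lower, miR-199-3p at a ratio of 0.0632 (0.0494 to 0.0797) and miR-199b-5p at no more than 0.0564.

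B16 exosomes were also set against JB6 exosomes, vesicles of a melanoma line against those of a skin line labelled normal. miR-199a-5p was 2.08-fold higher in B16 exosomes (1.10 to 3.58) and miR-199-3p had a ratio of 0.764 (0.597 to 0.963). miR-199b-5p and miR-214-3p were not resolved. At its share of JB6 exosomes miR-214-3p would have had 9.04 reads in the B16 exosome library, at the edge of being listed, so a lower level in B16 exosomes was not detectable at this depth under the total of miRNA reads. By the rule 1 of 4 members was higher and none lower, where 31.3% of 300 miRNAs were higher and 11.7% lower.

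The direction of miR-199a-5p turned with the total, to 0.402 with TMM factors (0.213 to 0.693), 0.319 with DESeq2 size factors (0.169 to 0.549) and 0.140 with the authors' totals (0.0742 to 0.241). Under these 3 settings the count became 3 members lower and none higher, the others being miR-199-3p and miR-214-3p. miR-214-3p, with its listed 0 at 9 reads, then had ratios of at most 0.193 (0.0879 to 0.368), 0.153 (0.0696 to 0.291) and 0.0671 (0.0306 to 0.128).

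**Figure D5:**
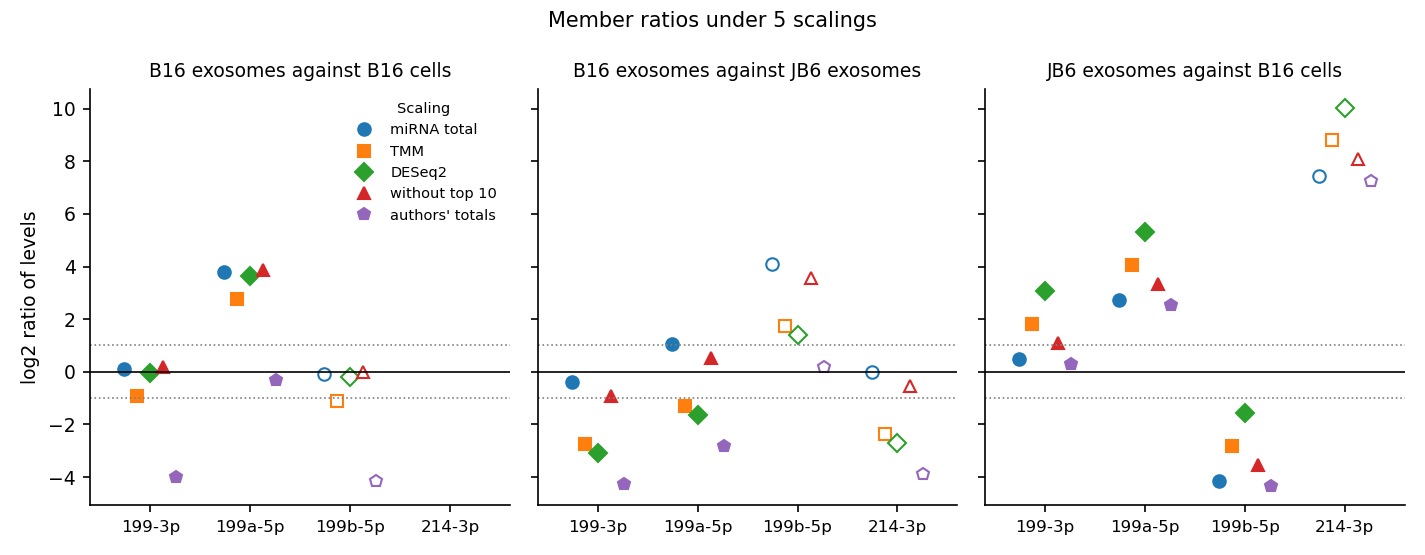
log2 ratio of each member in the 3 comparisons under 5 totals, with open symbols for limits, where 9 reads stand for a listed 0, and dotted lines at 2-fold. miR-214-3p has no ratio in the first panel. In the panel of JB6 exosomes against B16 cells, miR-199a-5p and miR-214-3p stay above 0 and miR-199b-5p below it under all 5, whereas in the other panels miR-199a-5p lies on both sides of 0.

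Other miRNAs of mesenchyme did not follow the members as a block. A list of 12 mesenchymal and smooth-muscle miRNAs had 11 members with enough reads. In JB6 exosomes against B16 cells 3 were higher, 4 lower and 4 neither, beside 26.1% higher and 60.7% lower over all miRNAs tested, with a median log2 ratio of -0.64 against -1.47 over the 305 miRNAs listed in both. miR-100-5p, which targets Mtor, was higher like miR-199a-5p, with 211 RPM in the cells and 9797 RPM in JB6 exosomes. miR-145a-5p, a miRNA of smooth muscle, was lower like miR-199b-5p, with 861 and 11.3 RPM, while its partner miR-143-3p had 35975 and 32173 RPM. Of the other arms of these hairpins, miR-145a-3p was neither, with 230 and 135 RPM, and miR-143-5p was lower, with 102 and 8.45 RPM. In B16 exosomes against B16 cells 4 of 11 were higher and 1 lower, beside 8.53% and 7.82% over all, with a median of 0.47 against 0.03 over all 144 miRNAs listed in both. In B16 exosomes against JB6 exosomes 5 of 11 were higher and 2 lower, beside 31.3% and 11.7%, with a median of 0.57 against 2.62 over all 131.

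Over the 3 libraries, the miRNAs nearest in pattern to miR-199-3p among 129 candidates were miR-10b-5p, let-7b-5p, miR-10a-5p, miR-99a-5p and miR-99b-3p, at distances of 0.20 to 0.55 log2 units. miR-99b-3p, the last of these, had 637, 416 and 853 RPM in B16 cells, B16 exosomes and JB6 exosomes. Those nearest to miR-199a-5p lay farther off, at 1.47 for miR-379-5p and 1.60 to 1.79 for miR-1981-5p, miR-221-3p, miR-28a-3p and miR-151-3p. miR-379-5p, of the imprinted Dlk1-Dio3 cluster, had 49, 14 and 615 reads, close to the 165, 13 and 616 of miR-199a-5p in the exosome libraries. With 3 points for each miRNA, the likeness is a description only.

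Liver, red-cell and muscle lists had higher summed levels in the JB6 exosome library, in which miR-214 was listed, and each sum was mostly 1 miRNA. The 3 liver markers summed to 252480 RPM there, against 686 RPM in B16 cells, where all 3 were listed too, and 963 RPM in B16 exosomes. Of that sum miR-122-5p made up 251231 RPM, while miR-194-5p was lower in JB6 exosomes than in B16 cells, at 28.2 against 110 RPM. The 3 red-cell markers, all listed, summed to 7478 RPM against 20.9 and 0, of which miR-486a-5p made up 7339 RPM. The 3 muscle markers, all listed, summed to 3707 RPM against 1.39 and 0, of which miR-206-3p made up 3696 RPM. The summed platelet and leukocyte list was lower, at 814 RPM against 3124 and 3963, of which miR-146a-5p made up 779, 3075 and 3963 RPM. Its other entries were mixed. Against B16 cells miR-155-5p was lower in JB6 exosomes, at 88 against 375 reads, and miR-150-5p higher, at 35 against 10. miR-142a-3p and miR-142a-5p were listed only in JB6 exosomes, at 22 and 12 reads, and miR-223-3p was at 0 in all libraries. The melanocyte list was lower too, at 3.11 RPM against 2667 and 1817. The part of these lists in the levels of miR-199a-5p, miR-199b-5p and miR-214-3p was not tested.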

How the data were processed

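Small RNA was sequenced in 1 library each of B16 cells, B16 exosomes and JB6 exosomes. Per the submitters' processing notes, bcl2fastq and BWA were used with the build mm10. Their versions, whether counting used strand, and how a read matching more than 1 miRNA was counted were not given in the sources used here, and the split between the close paralogues miR-199a-5p and miR-199b-5p is uncertain to that extent. The authors deposited raw counts per mature miRNA and a normalized RPM value, which per the file headers and the values is the count times a constant. Counts were used, and the authors' totals, computed from RPM, served as an alternative.

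From the counts, shares of miRNA reads and their ratios were computed with exact (Clopper-Pearson, conditional binomial) intervals in Python 3.11.15 with SciPy 1.17.1. Ratios of ratios used the conditional interval of the 2 by 2 table. The reads carry no stated molecular identifiers, so intervals cover counting error only. Alternative totals came from edgeR 4.0.16 (TMM), DESeq2 1.42.0 (size factors), a total without the 10 most abundant miRNAs of each library, and one with identical entries counted once. The code was tested on simulated data. No p-value was computed. Named were the members, miR-214-5p, miRNAs sharing a seed, the 5 nearest in pattern (centred log2 shares, Euclidean distance, listed in all 3 libraries with 100 or more reads in at least 1) and marker-list members. let-7d-3p was named after its values were seen. Members and lists were chosen with earlier results of these data known. The comparison with paralogue pairs was added after seeing the data. RefSeq GRCm38.p6 and GENCODE annotation gave sequences and genes.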

Additional observations from a re-analysis of the deposited data

How the results depend on the processing

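No paired analysis was possible because each group holds 1 library, and no library could be left out. In JB6 exosomes against B16 cells the number of members called stayed between 3 and 4 under all 11 alternatives. That number includes miR-214-3p, which with its listed 0 in B16 cells could not be called lower. In B16 exosomes against B16 cells it went from 1 higher to 1 higher and 1 lower with TMM factors and with a listed 0 set to 1 read, 2 in all, and to none higher and 2 lower with the authors' totals. In B16 exosomes against JB6 exosomes it moved from 1 higher to 3 lower with TMM factors, DESeq2 size factors and the authors' totals, to 2 with a listed 0 set to 1 read, and to 0 without the most abundant miRNAs or with an interval bound of 2-fold. The ratio of miR-199a-5p fell below 1 at 0.811 (B16 exosomes against B16 cells, authors' totals) and at 0.402, 0.319 and 0.140 (against JB6 exosomes, with TMM, DESeq2 and the authors' totals). These totals move every ratio of a comparison alike.

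The reads of miR-199 5p per 3p read, 0.154, 0.181 and 0.0720 in B16 cells, B16 exosomes and JB6 exosomes, became 0.0771, 0.0903 and 0.0360 with both 3p entries summed, and 0.0141 in B16 cells and 0.0664 in JB6 exosomes with miR-199a-5p alone, which turns the direction of JB6 exosomes against B16 cells. The B16 exosome value became 0.306 with the listed 0 of miR-199b-5p set to 9 reads. The reads of miR-214-3p per read of miR-199a-5p, at most 0.0545, at most 0.692 and 1.44, became at most 0.000768, at most 0.125 and 0.0959 with the shared 3p arm in its place. With a listed 0 set to 1 read they became 0.00606 in B16 cells and 0.0769 in B16 exosomes, where miR-199b-5p per miR-199a-5p also became 0.0769. Depth limits B16 exosomes, where a miRNA under 219 RPM is not listed.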

Other observations

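The minor 5p entry of miR-199 was a similar fraction of the major one in both deep libraries although the entries changed places. In B16 cells there were 0.101 reads of miR-199a-5p per read of miR-199b-5p (0.0852 to 0.118), and in JB6 exosomes 0.0844 reads of miR-199b-5p per read of miR-199a-5p (0.0623 to 0.112). Both fractions depend on how reads that match both 5p entries were assigned, which is unknown here, and its part in them was not tested. The sum of all miR-199 reads, with the shared 3p arm counted once, was 1706 RPM in B16 cells (1678 to 1735), 1861 RPM in B16 exosomes (1487 to 2301) and 2212 RPM in JB6 exosomes (2169 to 2256). The B16 exosome sum takes the unlisted miR-199b-5p as no reads.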
